A study of Mus musculus with 8 samples.

Results

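iNdiPSCs are induced pluripotent stem cells that were derived from induced neural stem cells (iNSCs) rather than from brain or fibroblasts, and 2 clones of them were compared with 3 control pluripotent lines on Illumina mouse bead arrays, 1 array for each sample. Of the 8 arrays of the series, these 5 enter the comparison, and MEFs (mouse embryonic fibroblasts), NSCs (brain-derived neural stem cells) and iNSCs serve only to sort its genes. The clones, iNdiPSC-1 and a second clone, both came from the same iNSCs by retroviral *Oct4* and *Klf4*, and the iNSCs had been made from MEFs with *Brn4*, *Sox2*, *Klf4* and *Myc*. The control lines were ESCs, NSC 2F iPSCs (from NSCs with *Oct4* and *Klf4*) and MEF 4F iPSCs (from MEFs with *Oct4*, *Sox2*, *Klf4* and *Myc*). By the labels the strain is C3H for the clones and the iNSCs and B6D2F1/J for the remaining 5 samples, and the MEFs, NSCs and ESCs carry a Tet-On background. Both iPSC lines and the clones were grown on feeder cells in 2i medium, the clones to a later passage. The age and sex of the source animals are not given in the sources used here.

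Pluripotent stem cells hold their state through a small network of transcription factors around *Pou5f1* (*Oct4*), *Nanog* and *Sox2*, and the 2i medium supports it by inhibiting MEK and GSK3. Germ line genes are held silent in most other cells by methylation of the DNA at their promoters, and 2i medium lowers DNA methylation in mouse pluripotent cells. Neural stem cells express transcription factors of the glial lineages, such as *Olig1* and *Olig2*, which pluripotent cells need not. Why any of the genes below differed was not tested.

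Of 16593 genes on the array, 8408 were detected (detection p under 0.01) on at least 2 of the 5 arrays and were tested with limma. Calls required an adjusted p (Benjamini-Hochberg) under 0.05 together with a 2-fold difference. This gave 48 genes higher in the clones, 0.571% of those tested, and 50 lower, 0.595%. Strain and condition coincide in this comparison, so a called gene was set aside where the iNSCs stood with the clones, at least 2-fold beyond both MEFs and NSCs on the clones' side. This set aside 26 genes, 6 of the 48 higher (12.5%) and 20 of the 50 lower (40.0%). Over all genes tested, the iNSCs stood at least 2-fold above both MEFs and NSCs on 3.15% and at least 2-fold below both on 2.31%. No called gene had the iNSCs 2-fold beyond both on the opposite side. The remaining 72 genes, 42 higher and 30 lower in the clones, are described here. The criterion reads only genes that a somatic array detects. On the probe tested, no somatic array detected 23 of the 42 and 4 of the 30, so strain and condition cannot be told apart on these 27 genes at all. A lower gene undetected in MEFs or in NSCs could not be set aside either, whatever its value in the iNSCs.

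**Figure D1:**
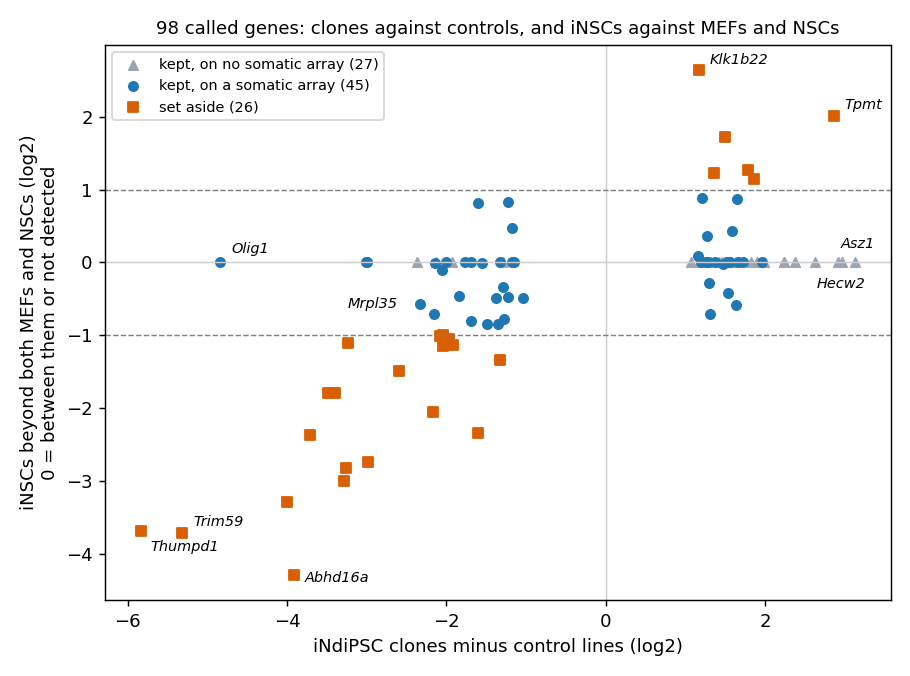
Each point is 1 of the 98 called genes, with the difference between the clones and the control lines (log2) on the x axis and the distance of the iNSCs beyond both MEFs and NSCs (log2, with undetected values raised to the lowest detected value of the array) on the y axis. The 26 squares past the dashed 2-fold lines were set aside and run down to *Abhd16a*, and the 72 kept genes lie between the lines, 27 of them (triangles) on no somatic array.

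The 5 pluripotent arrays detected all 6 markers of pluripotent cells that were set for them, *Pou5f1*, *Nanog*, *Sox2*, *Zfp42*, *Esrrb* and *Dppa5a*, at a median log2 level of 11.44 to 12.41. Of 10 fibroblast markers, which feeder cells would carry, the clones had 6 and 5 detected with a summed signal of 637 and 479. NSC 2F and MEF 4F iPSCs had 7 each (1450 and 1105) and ESCs 2 (365), against 10 in MEFs (29868). *Col1a2*, *Postn* and *Pdgfrb* were detected on none of the 5 arrays. From 11087 to 12128 probes were detected on each of the 8 arrays, and the median raw intensity of the 5 lay between 112 and 120. The clones were 2-fold apart on 69 of 12190 probes (0.566%), while pairs of control lines were 2-fold apart on 6.42% to 10% of theirs. From NSC 2F iPSCs, iNdiPSC-1 and the second clone were 2-fold apart on 6.82% and 6.08%, within or below that range. The shares were 10.6% and 9.7% from MEF 4F iPSCs and 13.8% and 11.3% from ESCs. The p-values treat the clones as independent although they share their iNSCs, and measure only the spread between these arrays, not that between separately derived lines. With the second clone left out, or iNdiPSC-1, none of the 72 genes was still called by limma (785 and 655 genes then had an unadjusted p under 0.05). Without the NSC 2F iPSC array 14 of the 72 were still called, 7 in each direction. The count was 33 without the MEF 4F iPSC array and 45 without the ESC array. All 72 kept their direction in each of these fits, which was fixed beforehand because the groups did not overlap in any of them.

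In each of the 72 genes both clones lay on the same side of all 3 control lines. In 38 of the 42 higher genes each clone was at least 2-fold above each control line, as in 0.773% of all genes tested, and in 26 of the 30 lower genes at least 2-fold below each, also 0.773% of all genes tested. Both clones lay above every control line by any distance on 22.6% of all genes tested and below every one on 18.8%. The kept genes were chosen by this same contrast, so these shares describe them and support nothing further. The median difference was 1.48 on the log2 scale among the higher genes and -1.64 among the lower. Against single control lines the medians of the higher genes were 1.53 (ESCs), 1.44 (NSC 2F iPSCs) and 1.43 (MEF 4F iPSCs), and those of the lower genes -1.54, -1.72 and -1.57.

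Genes of germ cells and meiosis, among the longest of the lists by genes tested, formed the group with the most called members. Of 29 tested genes of this list, 4 rose in the clones (*Asz1*, *Dazl*, *Brdt* and *Tuba3a*) and none fell. Over all genes tested, 0.571% rose and 0.595% fell. The list's median difference was 0.86 against 0.02 over all genes tested, with 11 members at least 2-fold above and 2 at least 2-fold below the control lines. In 14 of the 29 both clones lay above every control line and in 2 below every one, against 22.6% and 18.8% of all genes tested. The filter also admits genes detected in both clones and in no control line, 152 of the 8408, which could only lie higher. *Brdt* and *Tex101* of this list are among them, so these counts and the median lean upward by the filter. In bulk samples such as these, fewer cells of a type and less RNA per cell cannot be told apart. None of the 4 was set aside, but *Asz1*, *Dazl* and, on its brightest probe, *Brdt* were detected on no somatic array, so there strain and condition cannot be told apart. The same holds for *Tuba3a* on every probe but the one tested.
The 250 bases before the start of these 4 genes are shown because they hold the CG pairs at which germ line promoters can be methylated. They are RefSeq sequences of the build GRCm38.p6, 5′ to 3′ on the gene's strand, with each CG in capitals.
*Asz1* (chr6:18109062-18109311, minus strand): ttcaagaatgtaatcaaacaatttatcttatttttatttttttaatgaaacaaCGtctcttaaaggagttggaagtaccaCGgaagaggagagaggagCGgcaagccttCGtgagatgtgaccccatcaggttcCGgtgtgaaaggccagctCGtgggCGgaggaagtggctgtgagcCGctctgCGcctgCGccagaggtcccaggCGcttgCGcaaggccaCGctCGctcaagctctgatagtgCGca
*Dazl* (chr17:50293621-50293870, minus strand): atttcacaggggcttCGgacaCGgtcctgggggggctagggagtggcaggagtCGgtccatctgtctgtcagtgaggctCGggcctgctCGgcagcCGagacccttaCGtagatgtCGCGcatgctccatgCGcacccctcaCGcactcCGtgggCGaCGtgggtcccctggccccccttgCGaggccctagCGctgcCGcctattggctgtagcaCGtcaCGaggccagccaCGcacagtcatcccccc
*Brdt* (chr5:107330944-107331193, plus strand): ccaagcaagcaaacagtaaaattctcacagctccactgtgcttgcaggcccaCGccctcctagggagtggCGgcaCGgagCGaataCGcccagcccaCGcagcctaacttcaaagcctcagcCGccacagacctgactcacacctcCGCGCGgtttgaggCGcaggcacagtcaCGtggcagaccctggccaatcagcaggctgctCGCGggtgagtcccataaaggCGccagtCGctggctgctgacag
*Tuba3a* (chr6:125286082-125286331, minus strand): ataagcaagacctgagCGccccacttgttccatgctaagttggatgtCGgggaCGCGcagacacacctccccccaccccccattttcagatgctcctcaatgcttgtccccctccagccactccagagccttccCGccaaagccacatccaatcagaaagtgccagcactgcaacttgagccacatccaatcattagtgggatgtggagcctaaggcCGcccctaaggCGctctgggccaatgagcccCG
*Dazl* has 20 CG pairs in this window, a count that 17.7% of 27025 promoters (1 for each gene) reach. *Brdt* has 16 (25.6% of promoters), *Asz1* 15 (27.5%) and *Tuba3a* 8 (43.4%), and the median of all promoters is 6. Over the 24 tested germ cell genes with a promoter in the table the median was 14. The motif CACGTG, which reads the same on both strands and includes a CG, stood in 7 of these 24 (29.2%) and in 6.05% of all promoters. Among the 4 it stood only in *Brdt*. These shares were not compared at equal numbers of CG pairs, so they do not show that the motif marks germ cell genes. A match describes the letters in this window, and no binding or methylation was measured.

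*Asz1*, which encodes an ankyrin repeat protein of the piRNA pathway that silences transposons in germ cells, had log2 levels of 9.86 (iNdiPSC-1) and 8.98 (second clone). NSC 2F iPSCs stood at 6.73, MEF 4F iPSCs at 6.65 and ESCs at 5.50. Both clones lay far above the control lines, and the ESCs were lowest of all. The difference was 3.13 ± 0.45 (log2, SE, n = 2 and 3 arrays, adjusted p = 0.0424 from limma), and no somatic array detected the gene. *Dazl*, which encodes an RNA-binding protein of germ cells, stood at 10.87 and 10.15 in the clones. The control lines were close together, at 8.42, 8.20 and 8.19 (the lines in the same order, here and below). This gave a difference of 2.24 ± 0.25 (adjusted p = 0.0186 from limma).
*Brdt*, a testis reader of acetylated histones, was on its brightest probe detected in the clones (6.64 and 6.28) and on no other array. The clones were at least 2.51-fold above the control lines, where undetected arrays are set to the lowest value of any detected probe on the array (adjusted p = 0.0388 from limma). A second probe of *Brdt* was detected in both clones and in the iNSCs (5.76), and on no other array. On this probe the clones were only at least 1.02-fold above the control lines, and the iNSCs stood on the clones' side of MEFs and NSCs. *Tuba3a*, a testis alpha-tubulin gene, had 10.42 and 10.53 in the clones, and the control lines had 9.05, 8.89 and 8.87 (difference 1.54 ± 0.17, adjusted p = 0.0182 from limma). Its 3 other probes differed by 1.82 to 2.09 and were detected on no somatic array. The near-identical *Tuba3b* was 2.47-fold higher (adjusted p = 0.0494 from limma). RNA of *Tuba3a* or *Tuba3b* bound to the probe of the other cannot be told apart.
Other members of the list did not pass the test. *Mov10l1*, a helicase of the piRNA pathway, differed by 1.46 (adjusted p = 0.0567), *Sycp1* of the synaptonemal complex, detected in 1 of the 3 control lines, by 2.03 (adjusted p = 0.0663) and *Smc1b*, the meiotic cohesin subunit, by 2.15 (adjusted p = 0.0715, all from limma). *Rhox6* (-1.76) and *Rhox9* (-1.95), homeobox genes of the reproductive system, lay the other way and did not pass either (adjusted p = 0.228 and 0.192 from limma). Genes of the 2-cell stage embryo, which a small share of pluripotent cells express at any time, gave no call. Of 8 tested, 7 were higher in the clones at an unadjusted p under 0.05, as 10.9% of all genes tested were (8.12% were lower), and the median difference was 1.28. A member detected in the clones alone, such as *Usp17la*, could only lie higher. *Zscan4c* differed by 1.68 and *Gm5662* by 2.13 (adjusted p = 0.0907 and 0.0754 from limma). *Zscan4c* and *Usp17la* belong to families of near-identical copies, so their probes may read several genes.

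**Figure D2:**
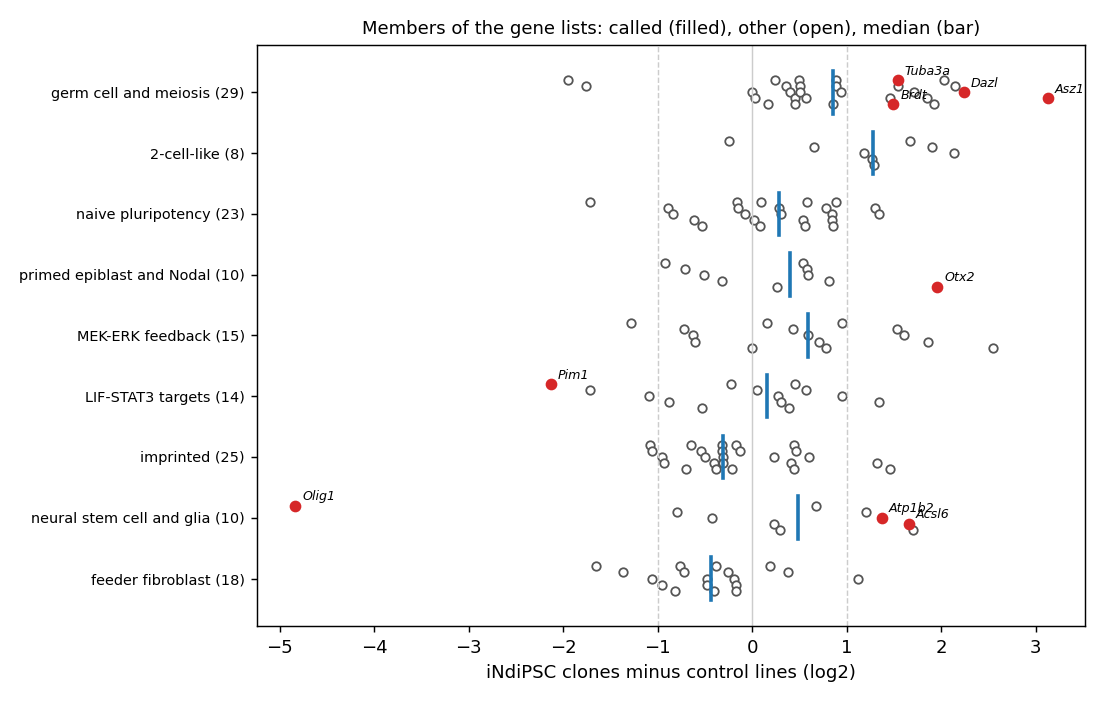
Each point is a tested member of a gene list, placed by its difference between the clones and the control lines (log2), filled where it was called, and the bar is the list's median (the number tested is in brackets). The medians of the germ cell (0.86) and 2-cell-like (1.28) lists lie to the right of 0, and *Olig1* lies farthest to the left at -4.84.

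The pluripotency network itself gave no call in 23 tested genes (limma), and 3 higher and 3 lower genes had an unadjusted p under 0.05. Over all genes tested, 10.9% were higher and 8.12% lower at that p. The median difference was 0.29. *Pou5f1* stood at 11.90 and 11.75 in the clones against 12.34, 12.21 and 12.79, so that both clones lay below all 3 lines. *Nanog* lay above them, narrowly, at 13.32 and 12.70 against 12.64, 11.46 and 12.27. *Klf4*, one of the factors delivered by virus, had 11.27 and 10.69 against 9.98, 8.83 and 10.10 (difference 1.34 ± 0.42, adjusted p = 0.174 from limma). *Sox2* differed by 0.58 ± 0.26 and *Zfp42* (*Rex1*) by 0.78 ± 0.28, with both clones above every control line in each, and *Lin28a* by -0.53 ± 0.26 with overlapping groups (adjusted p = 0.292, 0.21 and 0.332 from limma). With 5 arrays these intervals do not show that the levels were alike.
*Otx2*, a homeobox gene that drives the step from naive to primed pluripotency, was the called member of 10 tested genes of the primed epiblast. Of all genes tested, 0.571% were called higher. It had 10.43 and 10.73 in the clones, against 9.14, 8.26 and 8.46 (difference 1.96 ± 0.29, adjusted p = 0.045 from limma). It was detected in NSCs (7.18) and not in MEFs or iNSCs. *Nodal* differed by 0.81, and *Fgf5*, detected in no control line, was at least 1.12-fold higher, and neither passed (adjusted p = 0.134 and 0.17 from limma). *Pim1*, a kinase gene switched on by LIF and STAT3, fell in the clones and was the called member of 14 tested genes of that pathway. Of all genes tested, 0.595% were called lower. On the probe tested it was detected in neither clone, with 7.07, 7.02 and 7.09 in the control lines, which were within 0.1 of one another (lower by at least 3.98-fold, limma adjusted p = 0.00521). Of the other 13, 1 higher and 3 lower genes had an unadjusted p under 0.05, against 10.9% and 8.12% of all genes tested. *Gbx2* differed by -1.71 and *Cish* by -1.09, with both clones below every control line in each, while *Klf4* lay the other way (adjusted p = 0.107, 0.11 and 0.174 from limma). A second *Pim1* probe was detected in the second clone alone (5.07, near the lowest detectable value). *Fgf17*, a fibroblast growth factor gene, stood at 6.26 and 5.88 in the clones, against 7.87, 8.04 and 8.08 (3.81-fold lower, adjusted p = 0.0142 from limma). No somatic array detected *Pim1* or *Fgf17* on the probe tested, so strain and condition cannot be told apart on either gene.

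Of 10 tested genes of neural stem cells and glia, *Olig1* fell and 2 rose, against 0.595% and 0.571% of all genes tested. The list's median difference was 0.48, with 4 members at least 2-fold above the control lines and 1 at least 2-fold below. In 5 both clones lay above every control line and in 2 below every one, against 22.6% and 18.8% of all genes tested. *Nkx2-2*, detected in the clones and in no control line, could only lie higher. *Olig1* encodes a transcription factor of the oligodendrocyte lineage and stood at 14.39 in NSCs and 14.29 in iNSCs, the donor cells of the clones. The control lines had a signal of 8.92, 9.01 and, in the ESCs, 10.67, and neither clone had it detected (lower by at least 22.1-fold, limma adjusted p = 0.0186). The iNSCs lay with the NSCs here and not with the clones. Of 9 markers of neural stem cells, *Nes* and *Slc1a3* were detected on all 5 arrays, *Olig1* on the control lines alone, and the other 6 on none. Of these 6, *Olig2*, *Fabp7* and *Sox9* were detected in NSCs and iNSCs, *Gfap* in iNSCs alone, and *Sox1* and *Pax6* on no array of the series.
*Acsl6* (an acyl-CoA synthetase of brain) and *Atp1b2* (the glial beta subunit of the sodium pump) lay the other way, high in NSCs and iNSCs and higher in the clones than in the control lines. *Acsl6* stood at 7.08 and 6.87 in the clones, at 5.58 and 5.44 in NSC 2F and MEF 4F iPSCs and undetected in ESCs, with 7.53 in NSCs and 7.18 in iNSCs (difference 1.66 ± 0.24, adjusted p = 0.0427 from limma). A second *Acsl6* probe, detected on all 5 arrays, differed by 0.42. *Atp1b2* had 6.84 and 6.59 against 5.50, 5.19 and 5.34, with 9.85 in iNSCs (difference 1.37 ± 0.19, adjusted p = 0.0371). These 2 genes and *Tpmt* are the called members of 10 tested genes that the study named as candidates for memory of a donor cell. Of all genes tested, 0.571% were called higher. The study chose its candidates on these samples, so that their direction is not independent evidence. It named only *Tpmt*, *Acsl6*, *Atp1b2* and *Hebp2* for iNdiPSCs. *Tpmt*, which encodes thiopurine methyltransferase, was set aside. It stood at 8.45 in iNSCs, above 5.58 in MEFs and 6.43 in NSCs, and at 8.77 and 8.73 in the clones against 5.71 to 6.15 in the control lines.
*Hebp2*, a heme-binding protein gene of that list, had 7.21 and 7.18 in the clones, 6.85 in MEFs and no detection in iNSCs, and did not pass (difference 1.57 ± 0.29, adjusted p = 0.0715 from limma). *Adcy2* (0.52), *Pdzrn3* (0.05), *Anxa5* (-0.32), *Hoxc6* (-0.45), *Cryab* (-1.32) and *Cxcl1* (-1.35) did not pass, with adjusted p from 0.305 to 0.966 (limma). The study named *Cxcl1* for MEF 4F iPSCs, a control line here, and the others of these for iNSCs. *Plekhb1*, which encodes a pleckstrin homology domain protein, showed the NSC-like order too, at 10.58 in NSCs, 10.30 in iNSCs, 8.54 and 8.67 in the clones and 6.81 to 7.36 in the control lines (2.88-fold higher, adjusted p = 0.0388 from limma).

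Among the genes that had the largest differences and were detected on no somatic array were *Hecw2*, *H2-Bl*, *Crxos*, *Cd160*, *Tyr* and *Sytl3*. *Hecw2*, a ubiquitin ligase gene, was at 7.72 and 7.12 in the clones and detected on no other array (at least 4.88-fold, adjusted p = 0.00521 from limma). Its other 2 probes, also detected in the clones alone, were at least 5.26-fold and 1.27-fold higher. *H2-Bl*, a class I gene of the major histocompatibility complex (MHC) that RefSeq annotates as a transcribed pseudogene, was at 8.52 and 8.63 in the clones against 5.91, 5.29 and 5.77 (7.58-fold, adjusted p = 0.00521). The MHC is among the loci known to differ most between strains, and class I genes are alike in sequence. No other of 25 tested MHC and interferon genes was called, while 0.571% of all genes tested were called higher. *H2-DMa*, a class II chaperone gene outside that list, had 6.70 and 6.59 in the clones against 5.13 to 5.58 (adjusted p = 0.045 from limma), with 6.92 in MEFs and 5.91 in iNSCs.
*Crxos*, a homeobox gene, was at 7.83 and 7.39 and detected in no control line (at least 5.56-fold, adjusted p = 0.00521 from limma), and a second probe, with the same detection, was at least 1.54-fold higher. *Cd160*, which encodes a receptor of natural killer and T cells, was at 6.71 and 7.05 (at least 3.36-fold, adjusted p = 0.00543). *Tyr*, which encodes tyrosinase, the enzyme of melanin synthesis, was at 6.67 and 6.52 (at least 2.75-fold, adjusted p = 0.00521). *Sytl3* (6.62 and 6.39) and *Cst9* (6.69 and 6.04) were detected in the clones alone. *Pramel31* (7.66 and 7.10) was detected in 2 of the 3 control lines, at 5.68 and 5.47, and was 3.98-fold higher (adjusted p = 0.0388). *Pramel31* belongs to the large *Prame*-like family, whose copies its probe may share. In all, 18 of the 42 higher genes were detected on no control line, so that their folds are lower bounds, and 18 on every control line.
Other higher genes had signal on every array. *Uvrag*, an autophagy gene, stood at 9.64 and 9.41 against 8.22, 8.08 and 7.87 (2.77-fold, adjusted p = 0.0313 from limma). *Arrdc4*, an arrestin domain gene, stood at 11.59 and 11.67 against 9.98, 10.33 and 9.62 (3.14-fold, adjusted p = 0.0427), with the iNSCs 1.82-fold above both MEFs and NSCs, just short of being set aside. *Rgs10*, a regulator of G protein signalling, stood at 8.30 and 8.12 against 6.67, 6.89 and 6.18 (3.10-fold, adjusted p = 0.045), with 8.58 in MEFs, 8.69 in NSCs and 7.99 in iNSCs.

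**Figure D3:**
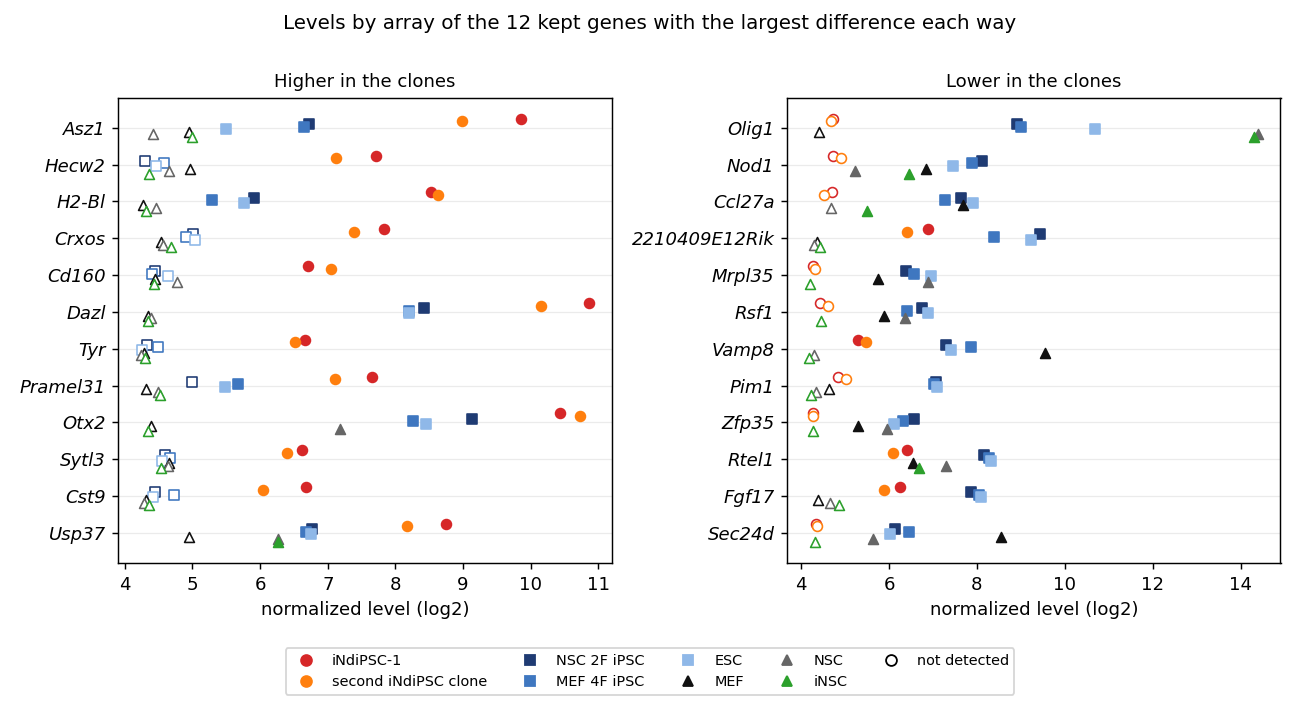
Normalized log2 levels on all 8 arrays of the 12 kept genes with the largest difference in each direction, circles for the clones, squares for the control lines and triangles for the somatic samples, open where the probe was not detected. Circles and squares do not overlap in any row, and in *Olig1* the NSC and iNSC triangles stand above 14 while both clones are open.

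Of the 30 lower genes, 13 were detected in neither clone and 16 in both. *Nod1*, a receptor of innate immunity for bacterial peptides, was undetected in both clones and at 8.11, 7.89 and 7.46 in the control lines (lower by at least 6.73-fold, limma adjusted p = 0.00521). The iNSCs had it at 6.45, between NSCs (5.24) and MEFs (6.83). *Ccl27a*, a chemokine gene with near-identical neighbouring copies in the mouse, was likewise undetected in both clones and at 7.64, 7.26 and 7.91 in the control lines (at least 5.80-fold, adjusted p = 0.00521), and a second probe with the same detection was at least 1.67-fold lower. *2210409E12Rik*, a transcribed pseudogene detected on no somatic array, had 6.89 and 6.41 against 9.44, 8.39 and 9.23 (5.15-fold, adjusted p = 0.0446).
*Rtel1*, a helicase gene of telomere upkeep, was detected on all 8 arrays, with 6.41 and 6.10 in the clones against 8.17, 8.28 and 8.31 (4.00-fold lower, adjusted p = 0.00903 from limma). Its other probes, both detected on all 5 arrays, differed by -0.72 and -0.93. *Cep19*, a centrosome gene, was 3.24-fold lower (adjusted p = 0.0189) and *Mrpl27*, of the mitochondrial ribosome, 2.42-fold lower (adjusted p = 0.0279), both with signal on every array. *Lgals1*, which encodes galectin-1 and is abundant in fibroblasts, had 9.52 and 9.43 in the clones against 11.18, 11.61 and 10.94, and 14.19 in MEFs (3.40-fold lower, adjusted p = 0.0351). The summed signal of the 10 fibroblast markers was 637 and 479 in the clones and 1450, 1105 and 365 in the control lines, and its part in the difference was not tested. *Vamp8*, a SNARE gene of vesicle fusion, was high in MEFs as well (9.54), with 5.29 and 5.47 in the clones against 7.30, 7.87 and 7.41 (4.43-fold lower, adjusted p = 0.0165), while its second probe differed by -0.37.
In 6 lower genes (*Mrpl35*, *Rsf1*, *Zfp35*, *Sec24d*, *Zfp93* and *Copb1*) the iNSCs had no detected signal while MEFs and NSCs did, as in many of the genes set aside. They were kept because MEFs or NSCs stood less than 2-fold above the lowest detectable value. *Rsf1*, a chromatin remodelling gene, for example, had 6.75, 6.40 and 6.89 in the control lines, 5.88 in MEFs and 6.36 in NSCs, and was detected in neither the clones nor the iNSCs (lower by at least 3.05-fold, limma adjusted p = 0.0122). *Mrpl35*, of the mitochondrial ribosome, was at 6.39, 6.57 and 6.96 in the control lines, 5.76 in MEFs and 6.87 in NSCs. *Sec24d*, a coat gene of vesicles that leave the endoplasmic reticulum, stood at 6.15, 6.44 and 6.01 and *Zfp35*, a zinc finger gene, at 6.56, 6.32 and 6.11, and neither was detected in the clones. Without these 6, chosen after the values were seen, 24 lower genes remain. Among the 24, *Vamp8*, *Tmco4* and *Map3k4* were undetected in the iNSCs and in either MEFs or NSCs, so the criterion could not set them aside.

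The genes set aside include the largest differences of the comparison. *Csrp1*, a LIM domain gene, stood at 5.61 and 5.87 in the clones against 9.74, 9.56 and 9.94 (adjusted p = 0.00174 from limma), and was undetected in iNSCs, with 10.81 in MEFs and 8.47 in NSCs. *Ttc27* had signal on all 8 arrays, at 7.25 in both clones against 10.17, 10.13 and 10.42, and at 5.64 in iNSCs against 8.37 in MEFs and 8.98 in NSCs. *Thumpd1*, *Trim59*, *Mettl14* (an RNA methyltransferase subunit) and *Pdrg1* were detected on all 5 B6D2F1/J arrays and on none of the 3 C3H arrays. Above the control lines, *Lrp6*, a Wnt coreceptor, stood at 7.22 and 7.02 in the clones and at 7.27 in iNSCs, and *Ehd3*, *Abhd1* and *Klk1b22* followed the same order. Other probes did not always agree. *Casp9* differed by -3.26 on its brightest probe and was at least 1.11-fold higher on another, detected in the clones and the iNSCs, and *Tor1aip2* differed by -3.28 on one and -0.25 on another, while the second probes of *Wdr46* (at least 9.31-fold lower) and *Twistnb* (-2.51) lay the same way as their first. The kept genes had 10 other probes, of 6 genes, with signal in both groups, and all 10 lay in the called direction. Of these, 4 did so by 2-fold, all of them probes of *Tuba3a* or *Rida*. A further 8 had signal in one group alone, which fixes their direction. Around the 2-fold limit, *Arrdc4* (1.82-fold) and *Tmem25* (1.85-fold) were just kept, and *Ctsc* (2.00-fold) and *Trim11* (2.02-fold) just set aside.

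Some called genes were neighbours in the gene order of the chromosome. How many such neighbours chance alone would give was not worked out, so no clustering is claimed. On chromosome 6, *Mrpl35*, *Ptcd3* and *Vamp8* lay within 9 consecutive tested genes and all fell, while the tested genes between them were not called. On chromosome 5 *Brdt* and the next tested gene, *1700028K03Rik*, both rose. On chromosome 7 *Tyr* rose and its neighbour *Ctsc*, which encodes cathepsin C and was set aside, fell. Pairs of kept genes with at most 5 tested genes between them were also *Tmco4* and *Mrto4* on chromosome 4 and *Fgf17* and *Rcbtb2* on chromosome 14, which all fell, and *Rsf1* (lower) and *Uvrag* (higher) on chromosome 7. *Sec24d* on chromosome 3 and *Aoah* on chromosome 13 lay close to genes set aside. Chromosomes 12 and 19 held no kept gene, and the X chromosome 1 (*Tspan6*).

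The clones differed from each other along 2 stretches of the genome. On chromosome 1, iNdiPSC-1 was above the second clone on 304 of 332 genes that all 5 arrays detected (91.6%), by a median of 0.33 on the log2 scale. Against the mean of the control lines iNdiPSC-1 was 0.35 higher on this chromosome and the second clone 0.03. The shift ran over the whole chromosome, with a median between the clones of 0.28 to 0.39 in each of 10 equal bins of its gene order. On chromosome 2 the order was reversed and local. The second clone was above iNdiPSC-1 by a median of 0.30 to 0.50 in bins 5 to 8, from *Ndufs3* to *Dlgap4*, while in the other 6 bins the median of iNdiPSC-1 minus the second clone lay between -0.11 and 0.08. In bin 8 only 1 of 57 genes was higher in iNdiPSC-1, and the median of the second clone was 0.42 above the control lines against -0.097 for iNdiPSC-1. On the 17 other autosomes the median between the clones lay between -0.06 and 0.09, and in their 170 bins between -0.19 and 0.15. These stretches were singled out after the values were seen, are given without a test, and DNA copy number was not measured here.
The shifts are smaller than the 2-fold threshold, and some of the called genes lie on the same chromosomes. Chromosome 1 holds 402 of the 8408 genes tested. It holds 5 of the 42 higher genes (*Hecw2*, *Usp37*, *Susd4*, *Crygd* and *Cps1*) and none of the 30 lower. In all 5 iNdiPSC-1 was above the second clone, as on 91.6% of the genes of this chromosome that all 5 arrays detected. The second clone, with no such shift, was still above every control line in each. *Usp37*, for example, stood at 8.74 (iNdiPSC-1) and 8.17 (second clone) against 6.77, 6.68 and 6.75 (3.29-fold, adjusted p = 0.0279 from limma). The part of the shifts in these calls was not tested. With the genes of chromosomes 1 and 2 left out of the fit 36 higher and 30 lower genes were kept. Of the 72 genes, 8 lie on these chromosomes and dropped out with them. The other 64, 35 higher and 29 lower, were all still called. None of the 4 called germ cell genes lies on either chromosome. On the X chromosome the control lines differed among themselves, with NSC 2F iPSCs a median of 0.61 above the mean of the other 2 over 237 genes. The clones stood at -0.13 and -0.18 from the control mean. The Y-linked *Eif2s3y*, *Kdm5d* and *Zfy1* were detected in both clones, MEF 4F iPSCs and ESCs and not in NSC 2F iPSCs. *Uty*, also Y-linked, was detected on all 5 arrays and *Xist* on none. None of 8 tested sex-linked genes was called, and the part of this imbalance in other calls was not tested.

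**Figure D4:**
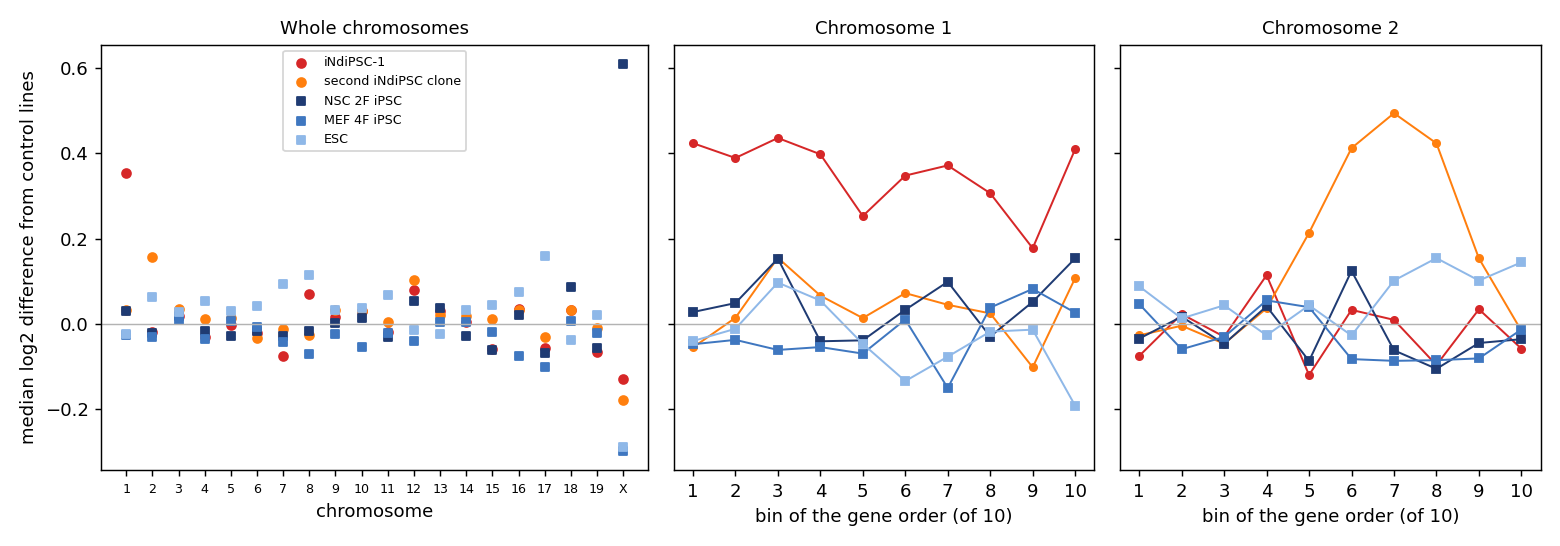
Median log2 difference of each array from the control lines (for a control line, from the other 2) over genes detected on all 5 arrays, for whole chromosomes on the left and for 10 bins of the gene order of chromosomes 1 and 2. iNdiPSC-1 lies at 0.35 on chromosome 1 with every bin above the other arrays, and the second clone peaks at 0.49 in bin 7 of chromosome 2.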

How the data were processed

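RNA of 8 samples was measured on Illumina bead arrays, 1 each. The authors deposited linear mean bead intensities with a detection p-value for each probe, exported with BeadStudio 3.2 before background correction or normalization, and a matrix of log2 values, which the submitters' processing notes link to RMA and lumi. From the intensities, all 8 arrays were normalized together with neqc of limma 3.58.1 (R 4.3.3, offset 16), and the 2 clones were compared with the 3 control lines by lmFit and eBayes. Each gene was read from 1 probe, that of highest mean level on the 8 arrays. Of 25697 probes, 23978 carry 1 symbol and 1719 none, and 23962 symbols were updated through RefSeq gene IDs. Chromosomes and gene order are RefSeq's, since the array names no build.

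The genes named were the 12 kept with the largest difference in each direction, every called list member, 6 pluripotency factors, the memory list and, among genes set aside, those with the smallest adjusted p and nearest the limit. A few more were chosen for their values. The members and lists were chosen with earlier results of these data known. The fit was checked on simulated data. The labels number the second clone 4 where the paper has 2, and call the iNSCs pluripotent, whereas here they count as a somatic sample, as in the paper. All columns were matched to a sample (0 unmatched), and the number of arrays limits the precision.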

Additional observations from a re-analysis of the deposited data

How the results depend on the processing

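No paired analysis was possible because the samples share only the replicate number 1, with 1 array for each line. Counts are those of called genes higher in the clones and of called genes lower in the clones, then as those kept after setting genes aside (48 and 50, 42 and 30 as reported). Leaving out 1 array in turn gave 0 to 44 higher and 2 to 67 lower genes, and 0 to 38 and 0 to 42 kept. With the mean of both clones as 1 sample there were 0 and 2 (0 and 0 kept, with 643 genes at an unadjusted p under 0.05), the 2 being *Thumpd1* and *Trim59*, which were also the only genes called with either clone left out. Without background correction there were 14 and 26 (13 and 17 kept), with detection on all 5 arrays 9 and 16 (8 and 9) and at a 4-fold threshold 8 and 25 (7 and 9). Without a detection filter 28 genes were higher and 23 of them kept, and with an offset of 50, 24 and 23. Over every probe 77 and 81 were called, with 69 higher probes kept. Setting aside at any distance left 16 lower genes. The other alternatives, which were the 75th percentile scaling, the authors' processed values, neqc over 5 arrays, a detection p of 0.05, the intensity trend, set-aside distances of 1.5 and 4-fold, any probe of a gene and, added after seeing the data, the 6 genes undetected in iNSCs and the chromosomes left out, moved no count by over 1.5 times. All 72 kept genes kept their direction in each fit that tested them. Leaving out 1 array or averaging the clones could not have changed it, since the groups did not overlap in any of the 72. The log2 difference of *Pdzrn3* changed sign without background correction (-0.025), at the offset of 50 (-0.0027) and without iNdiPSC-1 or the ESC array (-0.18 and -0.48, of a range of -0.48 to 0.50 with 1 array left out), and the log2 difference of Anxa5 without the MEF 4F iPSC array (0.060, the highest of a range from -0.69 with 1 array left out). Neither was called in any fit. The cause was not tested. An undetected value sets only a bound, so that folds of the 18 higher and 13 lower kept genes undetected in one group are minimum values.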

Other observations

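Between the clones, without replicates, the 5 largest differences toward iNdiPSC-1 were *Magea5* (2.41 on the log2 scale), *Gm5128* (2.15), *Magea2* (2.13), *Usp17la* (1.74) and *Nlrp4c* (1.71). *Magea2* and *Magea5* belong to the melanoma antigen family, which is expressed in testis. *Magea5* stood at 6.82 in iNdiPSC-1, 4.41 in the second clone, 5.26 in NSC 2F iPSCs, 4.29 in MEF 4F iPSCs and 4.31 in ESCs. The 5 largest toward the second clone were *Gm7609* (-1.58), *Chac1* (-1.44), *Ckmt1* (-1.26), *Rab6b* (-1.23) and *Uros* (-1.13). Of the 69 probes that were 2-fold apart, 49 were higher in iNdiPSC-1 and 20 lower, and none of the 98 called genes was 2-fold apart between the clones. All 8 tested genes of the 2-cell-like list were higher in iNdiPSC-1 than in the second clone, with medians of 1.64 and 1.00 above the mean of the control lines, and 19 of 29 germ cell genes were, with medians of 0.82 and 0.63.

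Feedback and immediate early genes of the MEK-ERK pathway, which 2i medium inhibits, gave no call in 15 tested genes (limma), 1 higher and 1 lower having an unadjusted p under 0.05. *Egr1* stood at 13.34 and 13.20 in the clones, 11.87 and 12.25 in the iPSC lines and 8.03 in ESCs (adjusted p = 0.321 from limma). Of 25 imprinted genes none was called, 3 higher and 4 lower having an unadjusted p under 0.05, with a median difference of -0.31. Beside both lists, 10.9% of all genes tested were higher at that p and 8.12% lower.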
